A study of Arabidopsis thaliana with 6 samples.

Results

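The plant defensin genes of Arabidopsis thaliana PDF1.2 (AT5G44420), PDF1.2b (AT2G26020) and PDF1.4 (AT1G19610) were read across 6 arrays of whole Col-0 seedlings. They were taken as the 3 probe sets that the platform annotation names for these genes, 249052_at, 257365_x_at and 261135_at, of 22746 probe sets on the array. Their levels on these arrays led to their choice, so all of their values are given as a description and none was tested. Seedlings at growth stage 1.02 had been kept at 4 °C for 72 h and then grown under continuous light and 23 °C, on 0.8% agar with a reduced strength of Murashige and Skoog salts. The arrays are titled glc, OMG, DOG, man, zer and wat, with 1 array per group, and the labels give the treatment of every sample as none, with no concentration or duration. The series title concerns glucose analogs that plants do not metabolise, and on that basis glc is read as glucose and OMG and DOG as analogs; related published work used 3-O-methylglucose and 6-deoxyglucose. The names man, zer and wat are kept as they stand, and man could be mannitol or mannose.

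Plant defensins are small, secreted, cysteine-rich peptides, many of which inhibit the growth of fungi. PDF1.2 is the usual marker of the joint jasmonate and ethylene branch of plant defence: response factors such as ERF1 and ORA59 bind GCC boxes in its promoter when both hormones signal. Salicylate signalling and the MYC2 branch of the jasmonate response are known to hold it down. The PDF1.2 copies are near-identical, and PDF1.4 is a more distant member of the same class.

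The table holds MAS5 signals, which summarise the perfect-match and mismatch probes of each probe set on a linear intensity scale. Signals below the 40th percentile of an array (26.1 to 28.8) were raised to that percentile, called the floor, before log2 differences were taken. Where 1 of the 2 values was at the floor, the fold is given as at least that size. A probe set entered a comparison when it was at or above the array median in at least 1 of the 2 arrays, and a 2-fold difference served as the mark. No spread between replicates exists for any value here. In bulk seedlings, fewer cells expressing a gene and less RNA per cell cannot be told apart.

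The 2 PDF1.2 probe sets were highest in man, and PDF1.4 was lowest in glc. PDF1.2 and PDF1.2b were at least 2-fold higher in man than on every other array, whereas PDF1.4 read nearly the same in man and wat. PDF1.2b was also more than 2-fold higher in OMG and in DOG than in wat. PDF1.4 was not, and PDF1.2 has only lower bounds there, under 2-fold.

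PDF1.2 had a signal of 36.8 in glc, 39.7 in OMG, 36.0 in DOG, 178.9 in man, 13.8 in zer and 27.2 in wat. It was above the array median in man alone, and was below the floor in zer and wat. In rank within each array it stood at percentile 83.3 in man and between percentiles 24.4 (zer) and 49.7 (OMG) on the other 5.

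PDF1.2b had a signal of 114.0 in glc, 217.0 in OMG, 192.0 in DOG, 532.8 in man, 59.2 in zer and 89.5 in wat. It was above the median on all 6 arrays, at percentile 94.7 in man and percentile 58.2 in zer. The ending of its probe set name marks probes shared with related genes, so the signal may come from several PDF1.2 copies. PDF1.2c, which lies next to PDF1.2, and PDF1.3, which lies next to PDF1.2b, had no probe set named for them alone. Whether the PDF1.2b signal includes theirs, or that of PDF1.2, was not tested.

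PDF1.4 had a signal of 61.2 in glc, 242.0 in OMG, 193.5 in DOG, 251.7 in man, 187.4 in zer and 254.2 in wat. The 5 arrays without glc lay within 1.36-fold of one another, and glc lay below all of them. Its rank was percentile 59.4 in glc and between 84.2 (zer) and 88.6 (wat) elsewhere.

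**Figure D1:**
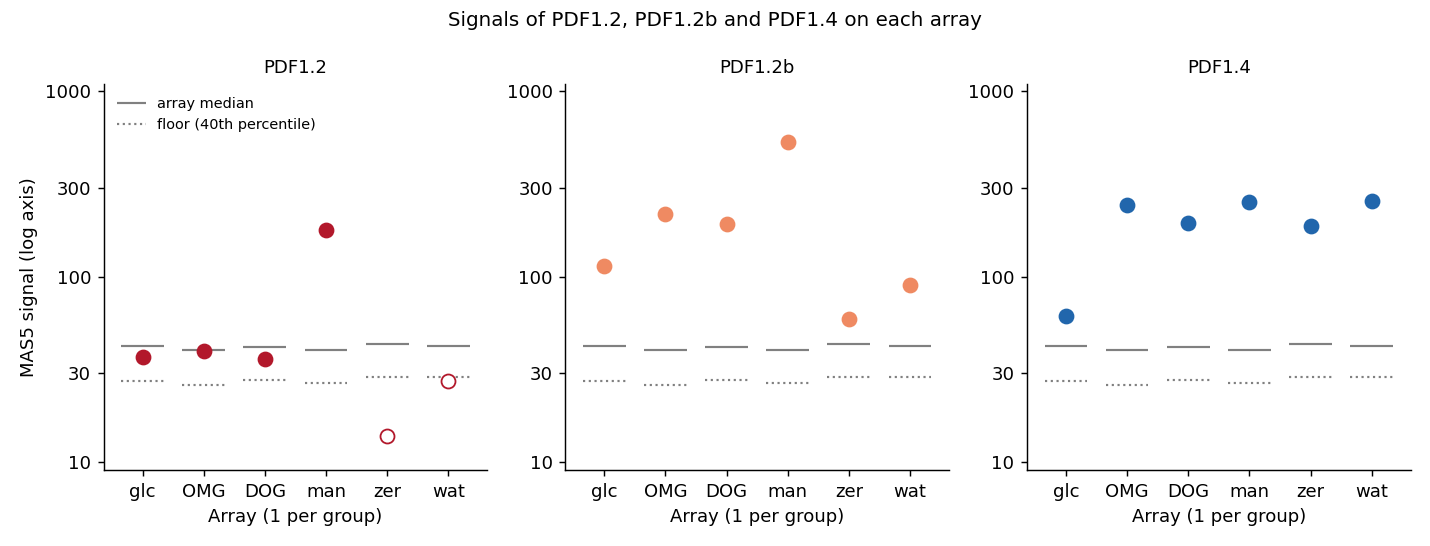
MAS5 signal (log axis) of PDF1.2, PDF1.2b and PDF1.4 on the 6 arrays, 1 point per array; open points are below the floor, and grey lines mark each array's median (solid) and floor (dotted). PDF1.2 reaches 178.9 in man and stays under 40 elsewhere, PDF1.2b reaches 532.8 in man, and PDF1.4 is lowest in glc at 61.2.

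The order of levels was man, OMG, glc, DOG for PDF1.2, with wat and zer both below the floor and so without an order. Man stood 4.51-fold above OMG, but OMG, glc and DOG were within 1.08-fold of their neighbours in that order. For PDF1.2b the order was man, OMG, DOG, glc, wat and zer. Man stood 2.46-fold above OMG, and the other steps were 1.13-fold, 1.68-fold, 1.27-fold and 1.51-fold. For PDF1.4 the order was wat, man, OMG, DOG, zer and glc, with steps of at most 1.25-fold down to zer and a last step of 3.06-fold from zer to glc. With 1 array per group no neighbouring pair could be tested.

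PDF1.2 and PDF1.2b were the probe sets furthest above wat in man. PDF1.2 was at least 6.26-fold higher in man than in wat, the largest of 11910 differences. PDF1.2b followed at 5.95-fold, and the probe set after it stood at 3.91-fold. PDF1.4 differed by -0.01 on the log2 scale. So 2 of the 3 probe sets were at least 2-fold higher, beside 0.243% of all probe sets compared. Both had been chosen on this contrast, and PDF1.2 entered it only through man. The PDF1.2b probe set may also read PDF1.2, so the 2 may not be separate readings.

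Man also exceeded the other arrays. PDF1.2 was 4.86-fold higher in man than in glc, 4.51-fold higher than in OMG, 4.97-fold higher than in DOG and at least 6.21-fold higher than in zer. PDF1.2b was 4.67-fold higher in man than in glc, 2.46-fold higher than in OMG, 2.78-fold higher than in DOG and 9.0-fold higher than in zer. PDF1.2 ranked highest of all probe sets compared against OMG and against DOG, and PDF1.2b ranked 10 and 9 there. Against glc PDF1.2 ranked 24 and PDF1.2b 26, and against zer they ranked 5 and 2. PDF1.2 entered each of these comparisons only through man. The share of probe sets past the mark on the high side of man was 2.62% against glc, 0.252% against OMG, 0.211% against DOG and 1.86% against zer. Only 7 of 12723 probe sets (0.055%) were at least 2-fold higher in man than on each of the other 5 arrays; PDF1.2 ranked 1 among them and PDF1.2b ranked 4.

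PDF1.2b was the probe set furthest above wat in OMG. It was 2.42-fold higher there (217.0 in OMG and 89.5 in wat), where 0.0504% of 11910 probe sets passed the mark on that side, and 2.15-fold higher in DOG (192.0 in DOG), where 0.135% of 11887 were, ranking 10. Both differences share the wat array. Against the median of the other 4 arrays the log2 difference of PDF1.2b was 0.55 in OMG and 0.29 in DOG, under the 2-fold mark. PDF1.2 was not compared in OMG or DOG, since its signal stayed below the array medians; its log2 difference was at least 0.47 in OMG and at least 0.33 in DOG.

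On the reading above, OMG is glucose with an added methyl group and DOG is glucose that lacks a hydroxyl group. In OMG PDF1.2b read 217.0 and in DOG 192.0, a 1.13-fold step, and PDF1.2 read 39.7 in OMG and 36.0 in DOG. PDF1.4 read 242.0 in OMG and 193.5 in DOG, a 1.25-fold step. No interval can be set on these differences with 1 array each, and the labels do not say whether the doses and times were the same.

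In glc PDF1.2b lay near wat, while PDF1.2 has only a lower bound because wat was below the floor. PDF1.2b was 1.27-fold higher in glc than in wat, and PDF1.2 was at least 1.29-fold higher but below the array median on both. Against the median of the other 4 arrays both signs turned, with a log2 difference of -0.84 for PDF1.2b and -0.04 for PDF1.2. The PDF1.2b level in glc was 1.90-fold under that in OMG, 1.68-fold under that in DOG and 1.93-fold over that in zer. These 3 differences were under the 2-fold mark.

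PDF1.4 was the defensin that differed in glc. It was 4.15-fold lower in glc than in wat (61.2 in glc and 254.2 in wat), the 22nd lowest of 12042 differences. Against the other arrays it was lower in glc by 3.95-fold (OMG), 3.16-fold (DOG) and 3.06-fold (zer). Seen from man, it was 4.11-fold higher in man than in glc, where PDF1.2 (4.86-fold) and PDF1.2b (4.67-fold) also passed the mark. At least 2-fold lower in glc were 1.57% of all probe sets against wat, 1.67% against OMG, 1.73% against DOG and 1.03% against zer. A difference of at least 2-fold below each of the other 5 arrays was found for 30 of 12723 probe sets (0.236%), and PDF1.4 ranked 10 among them by its gap to the next array.

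The 3' to 5' signal ratio of the actin control, which rises when RNA is less complete, was 6.41 in glc and 7.48 in zer, against 3.46 to 4.66 on the other 4 arrays. A second actin pair gave 1.76 in glc and 1.86 in zer, against 1.55 to 1.72, and a GAPDH pair gave 1.26 in glc and 1.38 in zer, against 1.21 to 1.35. PDF1.4 was low in glc, while in zer, which had the higher actin ratio, it read 187.4. The part of RNA completeness in the glc value was not tested. In man the actin ratio was 4.55 and in wat 4.66.

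In zer PDF1.2b and PDF1.4 were under 2-fold from wat. PDF1.2b was 1.51-fold lower (59.2 in zer and 89.5 in wat) and PDF1.4 1.36-fold lower (187.4 in zer), where 0.823% of 12027 probe sets passed the mark on the low side and 0.856% on the high side. Against the median of the other 4 arrays PDF1.2b passed the mark, with a log2 difference of -1.79. PDF1.2 was below the floor on both arrays, so no fold is given and whether it differed is not known.

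**Figure D2:**
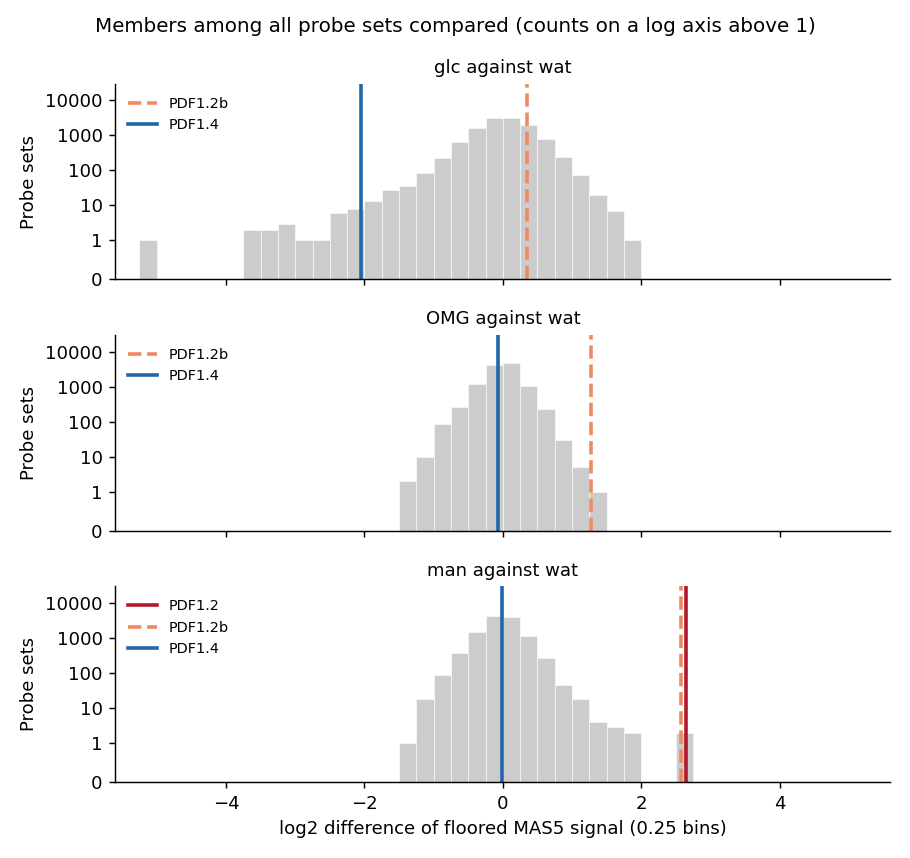
Number of probe sets (log axis above 1) by log2 difference of floored signal, in bins of 0.25, for glc, OMG and man against wat; coloured lines mark the members that entered each comparison. PDF1.4 lies at -2.05 in glc, PDF1.2b lies at the upper end in OMG at 1.28, and PDF1.2 (2.65, a lower bound) and PDF1.2b (2.57) lie beyond all others in man.

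PDF2.2, PDF2.3 and PDF2.5, the other plant defensin genes above the floor on all arrays, were under 2-fold apart in each of the 12 comparisons. Of 15 genes in the list, 12 had a probe set named for them alone, the 3 members and 9 others. PDF1.1, PDF2.4, PDF2.6, PDF3.1 and PDF3.2 were below the floor on all 6 arrays and have no fold. PDF2.2 read 1631.1 in glc, 1551.3 in OMG, 1469.0 in DOG, 1385.8 in man, 1223.2 in zer and 1570.3 in wat, a 1.33-fold range. PDF2.3 read 740.9 in glc, 705.8 in OMG, 745.3 in DOG, 604.9 in man, 777.1 in zer and 712.9 in wat, a 1.28-fold range with man lowest. PDF2.5, whose peptide is known to bind cadmium, stayed between 45.5 (wat) and 54.6 (DOG). PDF2.1 was below the floor in man at 21.1, against 43.7 in DOG, 48.8 in zer and 38.1 in wat, at least 1.64-fold lower than in DOG and at least 1.83-fold lower than in zer. Whether PDF2.1 passed 2-fold there cannot be told from these bounds.

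The defensin list as a whole had 6 genes compared in man against wat, with a median log2 difference of 0.08 beside -0.02 over all probe sets; the 2 past the mark were PDF1.2 and PDF1.2b, both higher, where 0.243% of all probe sets were past it on the high side and 0.16% on the low side. In glc against wat, 5 were compared, with a median of 0.06 beside 0.02 over all, and PDF1.4 was the one past the mark, lower, where 0.847% were past it on the high side and 1.57% on the low side. In zer against wat, 6 were compared, with 0 past the mark, beside shares of 0.856% on the high side and 0.823% on the low side, and a median of -0.15 beside 0.01 over all probe sets.

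**Figure D3:**
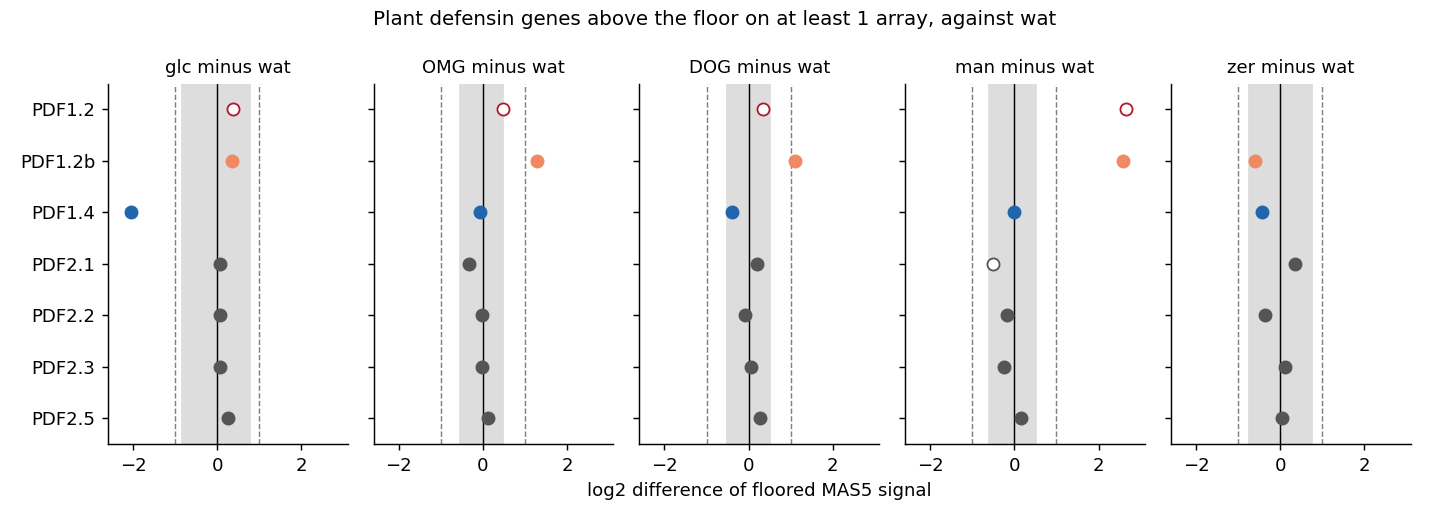
log2 difference of floored signal from wat for the 7 plant defensin genes above the floor on at least 1 array, in glc, OMG, DOG, man and zer; open points are lower bounds, grey bands hold the central 95% of all probe sets compared, and dashed lines mark 2-fold. Beyond 2-fold are PDF1.4 in glc (-2.05), PDF1.2b in OMG (1.28), DOG and man (2.57) and PDF1.2 in man; PDF1.2 in zer has no point because both arrays were below the floor.

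Few genes that act before PDF1.2 in the jasmonate and ethylene branch could be read here by a probe set named for them alone. Of 27 listed signalling genes, 2 had a probe set named for them alone. EIN3, the transcription factor at the head of the ethylene response, read 187.8 in glc, 229.6 in OMG, 194.1 in DOG, 234.7 in man, 194.5 in zer and 209.4 in wat, a log2 difference from wat of 0.16 in man and -0.16 in glc. AT5G43410 was below the floor on all arrays. ERF1, ORA59, MYC2 and COI1 had no probe set named for them alone. Whether probe sets with several genes, or those unnamed here, read the other listed genes was not examined.

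Of 11 jasmonate synthesis genes, OPCL1, a CoA ligase of the pathway's peroxisomal step, was the one measured. It read 70.6 in glc, 46.4 in OMG, 56.9 in DOG, 72.8 in man, 62.7 in zer and 56.3 in wat, with log2 differences from wat of 0.37 in man and 0.33 in glc. Man and glc were thus both above wat, by under 2-fold. None of 8 ethylene synthesis genes had a probe set named for it alone. Among 7 other jasmonate and ethylene targets, THI2.1, a thionin, was below the floor on all arrays, with 21.9 in man and 21.8 in wat. Among 12 salicylate defence genes, GRX480, a glutaredoxin known to repress PDF1.2, read 27.6 in man, just over the floor, and lay below it on the other 5 arrays. EIN3 and OPCL1 were the only genes of these lists that entered the comparisons with wat in man and glc, too few to describe the lists.

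The labels give entire seedlings, and the shoot marker RCA and the root marker PYK10 were read at high signal on every array. RCA, Rubisco activase of leaves, read 3129.5 in glc, 3292.3 in OMG, 3054.7 in DOG, 2906.1 in man, 3309.7 in zer and 2776.9 in wat. PYK10, a root beta-glucosidase, read 3015.8 in glc, 3009.9 in OMG, 2765.7 in DOG, 2637.8 in man, 3311.3 in zer and 2788.2 in wat. EXPA7 and EXPA18, expansins of root hairs, read far lower. EXPA7 ran from 28.4 (OMG) to 46.0 (glc) and EXPA18 from 34.5 (wat) to 44.9 (glc). Their log2 differences from wat were 0.15 and 0.01 in man and 0.24 and 0.38 in glc. Of 10 shoot and root genes, these 4 had a probe set named for them alone, and all were under 2-fold from wat in man and glc. EXPA18 was below the array median in both man and wat, so it did not enter that comparison. Seed markers had no probe set named for them alone.

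Patterns over the 6 arrays were compared by Pearson's r of log2 floored signals, among 529 probe sets named for a single gene that spanned at least 2-fold and reached an array median. Over 6 single arrays r can be set by 1 array that stands apart. PDF1.2 and PDF1.2b, which may share signal, had r = 0.87 with each other. PDF1.4 had r = 0.24 with PDF1.2 and 0.30 with PDF1.2b. The gene most like PDF1.2 was AT1G10585 (r = 0.95), with 42.8 in glc, 35.6 in OMG, 46.1 in DOG, 94.3 in man, 6.6 in zer and 33.6 in wat. JRG21, named as a jasmonate-regulated gene, had r = 0.95, reading 53.6 in man and lying below the floor on the other 5 arrays, at 25.9 in OMG and 11.2 in wat.

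AT3G16530 ranked 3 for PDF1.2 (r = 0.94) and 1 for PDF1.2b (r = 0.96). It read 1073.6 in glc, 1204.4 in OMG, 1133.5 in DOG, 1816.5 in man, 856.8 in zer and 1066.0 in wat. Like PDF1.2b, it was highest in man and lowest in zer, over a smaller range. AT5G17380 (r = 0.92) and AT2G37750 (r = 0.91) followed for PDF1.2b. AT5G17380 read 604.3 in man, 278.8 in zer and 422.8 in wat, and AT2G37750 read 400.1 in man, 178.8 in zer and 255.7 in wat.

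The genes most like PDF1.4 were AT3G52070 (r = 0.99), AT4G09830 (r = 0.98) and MCCB (r = 0.97). AT3G52070 read 64.6 in glc, 133.7 in OMG, 113.6 in DOG, 140.2 in man, 108.4 in zer and 139.8 in wat. MCCB, a subunit of methylcrotonyl-CoA carboxylase in leucine breakdown, read 186.5 in glc and 625.9 in wat. Of 1058 probe sets with or without a name, 120 had r of at least 0.9 with PDF1.4, against 7 with PDF1.2 and 19 with PDF1.2b. These counts depend on how many probe sets moved on each array. At least 2-fold from wat were 291 probe sets in glc and 48 in man.

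**Figure D4:**
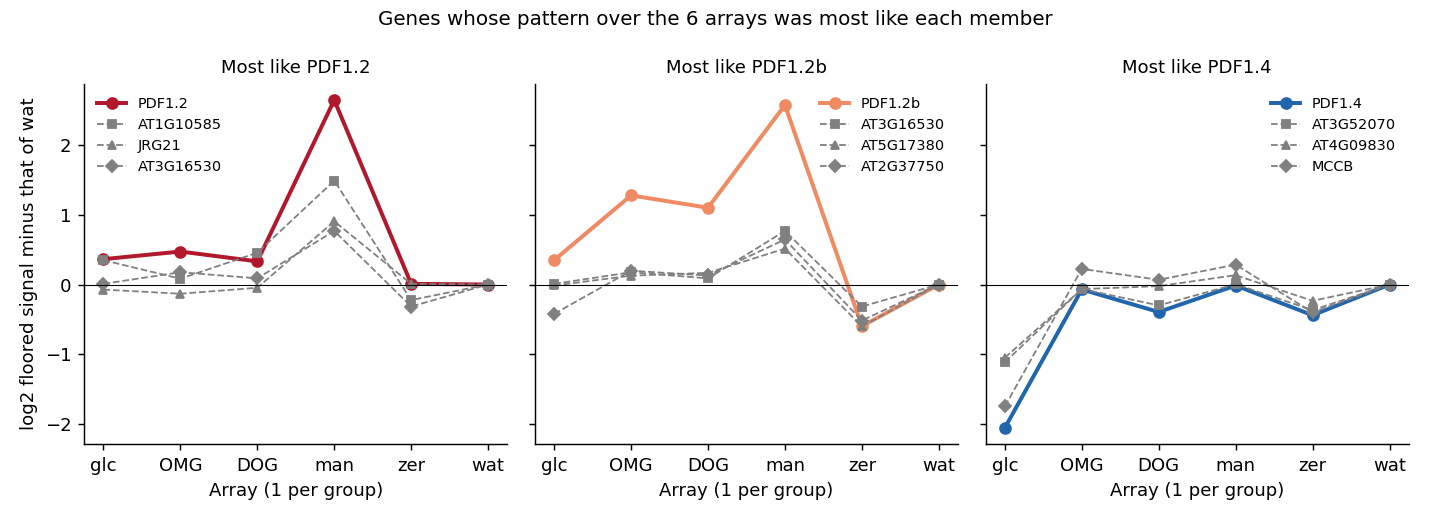
log2 floored signal minus that of wat over the 6 arrays for each member (coloured) and the 3 named genes with the highest Pearson's r to it (grey). The genes most like PDF1.2 and PDF1.2b peak in man, where they differ less from wat than the defensins do, and those most like PDF1.4 are lowest in glc.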

How the data were processed

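Total RNA of 6 seedling samples was labelled with biotin and hybridised, 1 array per sample. The authors deposited linear intensity values, 1 signal per probe set, which the submitters' processing notes credit to MAS5. The sources used here do not give the version and settings of MAS5. Each column had a mean of 100 after trimming 2% at each end, so a change shared by most transcripts would be hidden. Of 22810 probe sets, 64 controls were left out. Groups were taken from the titles. The platform annotation gave 13513 probe sets 1 gene each, and 13436 of these matched a RefSeq gene table of assembly TAIR10.1, used for names and gene order only; 503 had several genes and 8730 are unnamed here.

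Log2 differences of floored signals were computed for 12 pairs of arrays with Python 3.11.15, numpy 2.4.6 and pandas 2.3.3. No test was possible, and the number of arrays limits the precision. The counting code was checked on a copy of the wat signals, with known folds put into probe sets far above the median. No noise was added, so this checks the code and not the calls on single arrays. For a gene read by several probe sets, the one with the highest mean signal was used. Named genes were the members, all other plant defensins with a probe set, up to 4 genes per list with the largest differences in man or glc against wat, and the 3 named genes most like each member. The members and lists were chosen with earlier results of these data known. Promoter and protein sequences were not used here. The alternatives were a floor at the 20th percentile, no floor with an offset of 16, quantile normalization, equal medians, other filters, and the median of the other 4 arrays as control.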

Additional observations from a re-analysis of the deposited data

How the results depend on the processing

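Of 159 member differences recomputed under the alternatives, 154 kept their side of the 2-fold mark and 0 called ones changed direction. With the median of the other 4 arrays as control, PDF1.2b dropped under the mark in OMG (log2 0.55) and DOG (0.29) and passed it in zer (-1.79). With no floor and an offset of 16, PDF1.2b in DOG was 0.98. With the floor at the 20th percentile, PDF1.2 in glc against zer passed it at 1.42. PDF1.2 in man against wat ran from 2.17 to 2.72, PDF1.2b from 1.85 to 2.64, and PDF1.4 in glc against wat from -2.09 to -1.81. PDF1.2b in glc against wat, under the mark throughout, ran from -0.84 to 0.36, PDF1.2 in glc against wat from -0.04 to 0.44 and PDF1.2 in DOG against wat from -0.09 to 0.40, so these signs are not settled. The 60 recomputed list medians stayed under the mark. Their main values lay between -0.16 and 0.37, far from it. The jasmonate and ethylene signalling, jasmonate synthesis and shoot lists had 1 gene compared each, so this outcome says little about the lists.

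Counts of probe sets at least 2-fold apart moved more. The main counts were 291 (glc against wat), 18 (OMG), 26 (DOG), 48 (man) and 202 (zer), 34 and 40 for man against OMG and DOG, and 298, 304 and 214 for glc against OMG, DOG and zer. With the offset of 16 they were 192 (glc), 15 (DOG), 24 (man) and 129 (zer) against wat, 19 and 20 for man against OMG and DOG, and 198, 200 and 138 for glc against OMG, DOG and zer. With the floor at the 20th percentile they were 45 in both OMG and DOG and 75 in man against wat, and 54 for man against OMG. With the filter on both arrays they were 3 (OMG), 8 (DOG), 26 (man) and 130 (zer) against wat, 15 and 21 for man against OMG and DOG, and 121 for glc against zer. The filter on both arrays and the floor change how many low signals enter. No paired analysis was possible because each group has 1 array. Signals near or below the floor limit PDF1.2 on every array but man.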

Other observations

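Of the genes next to the members, none beside PDF1.2b had a probe set named for it alone. AT5G44410 and AT1G19600 did, and gave other patterns. AT5G44410, the neighbour of PDF1.2 on the side away from PDF1.2c, read 42.1 in glc, 41.9 in OMG, 41.9 in DOG, 27.2 in man, 57.2 in zer and 39.6 in wat. It was lowest in man, where PDF1.2 was highest, but that value lay just over the man floor of 26.7. AT1G19600, the neighbour of PDF1.4, read 210.8 in glc, 228.4 in OMG, 267.7 in DOG, 248.1 in man, 239.1 in zer and 211.7 in wat, a 1.27-fold range without the low glc value of PDF1.4. These neighbours were chosen by gene order and not by their values.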
